A study of Mus musculus with 12 samples.

Results

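The 10 genes described here are markers of the cells that form the walls of brain vessels. Pecam1, Cldn5, Cdh5, Flt1, Kdr, Tek, Abcb1a and Slco1a4 mark endothelial cells, which line the vessel, and Pdgfrb and Vtn mark mural cells (pericytes), which wrap around it. They were taken as a fixed list of 10 out of 21900 protein-coding genes, and every peak of the 6 deposited lists that overlapped the gene's span on the gene's strand was counted. This gave 34 of the 72319 peaks in the 6 lists.

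The lists come from 18-month-old (aged, labelled natural aging) and 3-month-old (young) female wild-type C57BL/6 mice with no other treatment, 3 lists per age. Whole hippocampus RNA was broken into fragments and captured with an antibody to 5-methylcytosine (m5C, a methylated RNA base), and each captured library (IP) was sequenced beside an input library that had not been captured, giving 12 libraries. Nothing in the labels ties the samples to separate animals, so the p-values measure only how far these samples spread, and that spread may be technical. In whole tissue, fewer vessel cells and less RNA per cell cannot be told apart, and a peak needs enough of the transcript as well as the modification.

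Endothelial cells of the brain form the blood-brain barrier: their junction proteins seal the gaps between cells, and their transporters decide what crosses the wall. They grow and survive through receptor tyrosine kinases for VEGF and the angiopoietins, while platelet-derived growth factor from the endothelium holds pericytes on the vessel through Pdgfrb. m5C is placed on RNA by methyltransferases of the NSUN family and is bound by reader proteins that act on RNA export and stability.

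The aged lists held 14497 ± 616 peaks and the young lists 9609 ± 952 (mean and SD, n = 3 each). The reads behind them are unknown. The authors gave each peak a score, from 50 upward. It is used here to describe peaks, to rank them within a list and, in 1 setting, as a fixed limit of 100 in every list. Because the aged lists are longer, each result is given for all peaks and for lists of equal length, in which only the highest-scoring peaks of each list were kept, as many as the shortest list (young replicate 2) holds. Of other cell types, neuronal markers had a peak in 6 of 6 genes in every list, astrocyte markers in 4 to 5 of 6 in aged and 3 to 5 of 6 in young lists, oligodendrocyte markers in 3 to 4 and 2 to 4 of 6, microglial markers in 1 of 6 in every list, and perivascular fibroblast markers in 1 to 2 and 2 to 3 of 5. Choroid plexus markers had Prlr alone in aged replicate 1 and Ttr alone, with 3 peaks, in young replicate 3. Their part in the results below was not tested.

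Of the 10 vessel genes, 8 had a peak in at least 1 list, against 43.5% of all protein-coding genes. Flt1 had peaks in every list, Pecam1 in every aged and no young list, and Pdgfrb in 2 young and no aged lists. Kdr had a peak in 3 aged lists and 1 young list, Cdh5 in 1 aged and 2 young, Abcb1a and Vtn in 2 aged and 1 young, and Slco1a4 in 1 of each age. Cldn5 and Tek had none. No same-strand peak lay within 5000 bases outside any of the 10 spans, and no peak lay inside them on the other strand. For Pecam1, Cdh5 and Pdgfrb the strand was itself taken from the peaks.

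**Figure D1:**
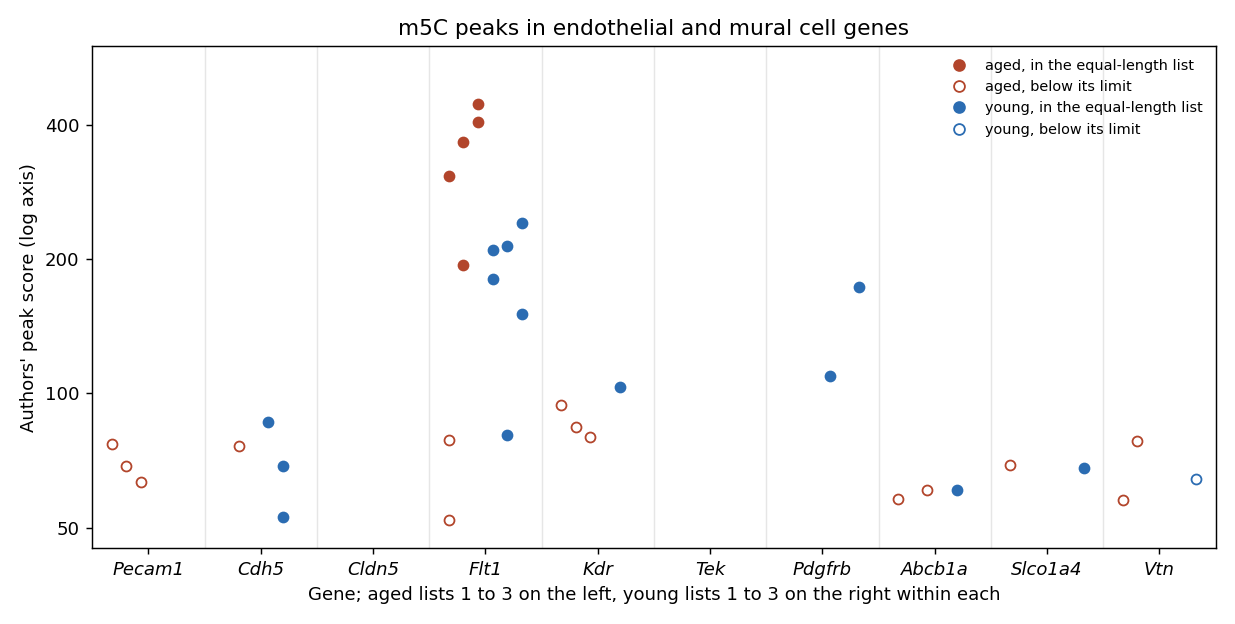
Score given by the authors (vertical, log axis) to each m5C peak in the 10 genes, with aged lists in red left of young lists in blue for each gene; filled points are kept in the lists of equal length, open points are not. Flt1 has the highest scores in both ages, the aged points of all other genes are open, and Cldn5 and Tek are empty.

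Among the junction and adhesion genes, Pecam1 (PECAM-1 or CD31, an adhesion molecule at endothelial contacts) had 1 peak in each aged list and no peak in any young list. The peaks lay in the same place on chromosome 11 from 106654920 to 106655162 (mm10, minus strand), were 147, 243 and 212 bases wide in aged replicates 1, 2 and 3, and shared their 5' edge. Their midpoints were 828 to 876 bases from the 3' end of the 61069-base gene span. The groups did not overlap, at 1 peak in every aged and 0 in every young list (two-sided exact permutation p = 0.1, which is the lowest this design can give, with a Benjamini-Hochberg adjusted p of 0.781 over 9530 genes with a peak). The same rule, a peak in every aged and no young list, held for 4.24% of those genes and for 1 of the 8 vessel genes, so a single gene carries this count.

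The Pecam1 peaks were weak within their lists. They scored 77.1, 68.8 and 63.3, and ranked 11522 of 15189, 11377 of 14008 and 12269 of 14294. None was kept in the lists of equal length, where Pecam1 had no peak at either age.

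Cdh5 (VE-cadherin, the adherens junction protein of endothelium) had its peaks mainly in young lists. In aged lists it had 0, 1 and 0 peaks, and in young lists 1, 2 and 0, so that the ages overlapped (exact permutation p = 0.7). The shared region, on chromosome 8 from 104142481 to 104144229 (plus strand), started at the same base in 3 lists. It was 708 bases wide in aged replicate 2, against 1749 and 1720 bases in young replicates 1 and 2. The scores there were 76.2 in the aged list and 86.4 and 68.8 in the young ones. Young replicate 2 had another peak further 5' in the gene, from 104125459 to 104125747, with a score of 52.8. Of the Cdh5 peaks, the 3 young ones were kept in the lists of equal length and the aged one was not.

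Cldn5 (claudin-5, the main tight junction protein of the blood-brain barrier) had no peak in any of the 6 lists. Its span on chromosome 16, from 18776847 to 18778262, is 1416 bases long and is the shortest of the 10. A missing peak means that nothing in the span passed the authors' threshold at an unknown depth.

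Flt1 (VEGF receptor 1, which binds VEGF and limits its action on Kdr) was the vessel gene with the most peaks, 13 of the 34. It had 3, 2 and 2 peaks in the aged lists and 2, 2 and 2 in the young ones (exact permutation p = 1), and was the only one of the 8 genes found in all 6 lists. The same was true of 32% of all genes with a peak. Most of its peaks fell in 2 regions on the minus strand of chromosome 5, both present in every list and separated by 73.2 kb. Of the 13 regions that held the vessel genes' peaks, these 2 were the ones found in all 6 lists, against 17.6% of 24503 regions in the series.

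One Flt1 region lay at the very 3' end of the 164835-base span, from 147561604 to 147563500. It scored 307, 366 and 406 in the aged lists, ranking in the upper 30%, 26.0% and 24.0% of each, and 210, 80.8 and 241 in the young lists, in the upper 37.1%, 66.8% and 30.4%. In young replicates 1 and 2 the peak reached the last base of the span, and in the others it stopped 50 to 334 bases short. The peak was 1847, 696 and 1704 bases wide in aged lists and 1593, 1832 and 1444 in young lists, and 696 bases were covered in all 6.

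The other region was internal, from 147636673 to 147638030, with midpoints 88936 to 89197 bases from the 5' end of the span. Its scores were 78.7, 194 and 446 in the aged lists and 180, 214 and 150 in the young lists, and the aged values spread more widely, on both sides of the young ones. All 6 lists covered 616 of its 1358 bases. The gene gives rise to a short, secreted receptor (soluble Flt1) as well as the membrane form; the table of gene spans used here has no exons, so neither region is assigned to an exon, an intron or a transcript form. A further Flt1 peak, 96 bases wide with a score of 52.0, was found in aged replicate 1 alone.

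**Figure D2:**
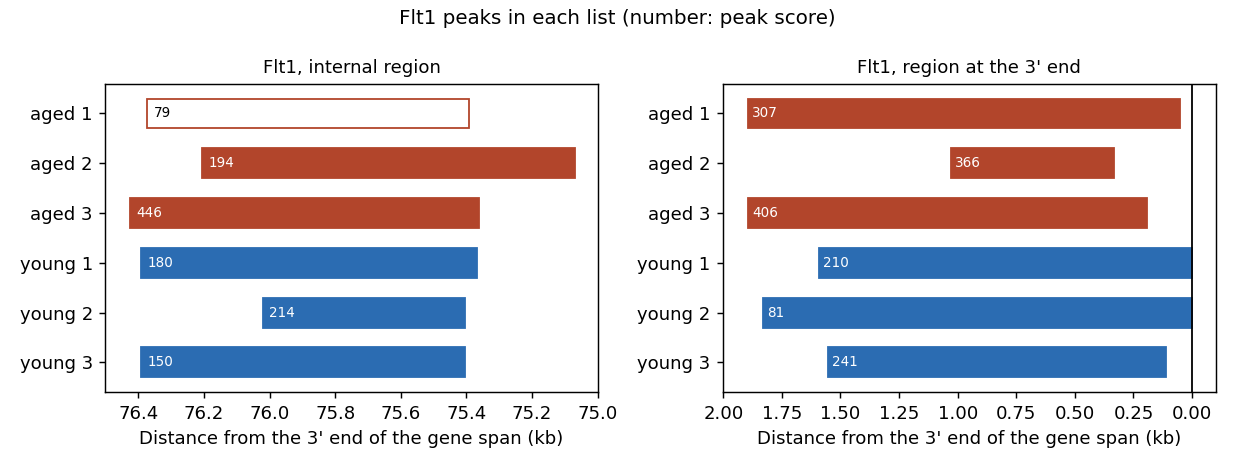
Extent of each Flt1 peak in the internal region (left) and in the region at the 3' end (right), by list from aged to young, with distance from the 3' end of the gene span in kb on the horizontal axis and the peak score inside each bar; open bars are peaks left out of the lists of equal length. Both regions have a bar in all 6 lists, and the internal peak of aged replicate 1 is the open one; the further peak of that list is not drawn.

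Kdr (VEGF receptor 2, the main signalling receptor for VEGF in endothelium) had 1 peak in each aged list and 0, 1 and 0 in the young lists (exact permutation p = 0.4). All 4 peaks lay in 1 region at the 3' end, on chromosome 5 from 75933061 to 75934618 (minus strand), and overlapped by 1046 bases. The scores were 94.4, 84.2 and 80.0 in the aged lists and 103 in young replicate 2. Kdr was in more aged than young lists by count, but in the lists of equal length only the peak of young replicate 2 was left. It stood in the upper 55.2% of its own list, and the aged peaks in the upper 66.2%, 71.2% and 73.2% of theirs. Without young replicate 2, Kdr would have had peaks in every aged and no young list, as 508 of 9232 genes (5.5%) then did.

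Tek (the angiopoietin receptor TIE2, which keeps vessels quiescent) had no peak in any list, over a span of 135891 bases on chromosome 4 from 94739086 to 94874976. The spans of Flt1 (164835 bases) and Abcb1a (181485 bases), the only longer ones among the 10, held 13 and 3 peaks.

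Pdgfrb (the platelet-derived growth factor receptor of pericytes) had 0, 0 and 0 peaks in aged lists and 1, 0 and 1 in young lists, so that the ages met at 0 in young replicate 2 (exact permutation p = 0.4). Both peaks spanned exactly the same 1847 bases on chromosome 18, from 61083221 to 61085067 (plus strand), ending at the last base of the gene span. They scored 109 in young replicate 1 and 173 in young replicate 3, in the upper 57.9% and 38.7% of their lists, and both were kept in the lists of equal length. Outside Flt1, the peak of young replicate 3 had the highest score of any vessel gene. Without young replicate 2, Pdgfrb would have been in every young and no aged list, as 131 of 9232 genes (1.42%) then were. With all 6 lists no vessel gene met that rule, and 0.808% of genes did.

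**Figure D3:**
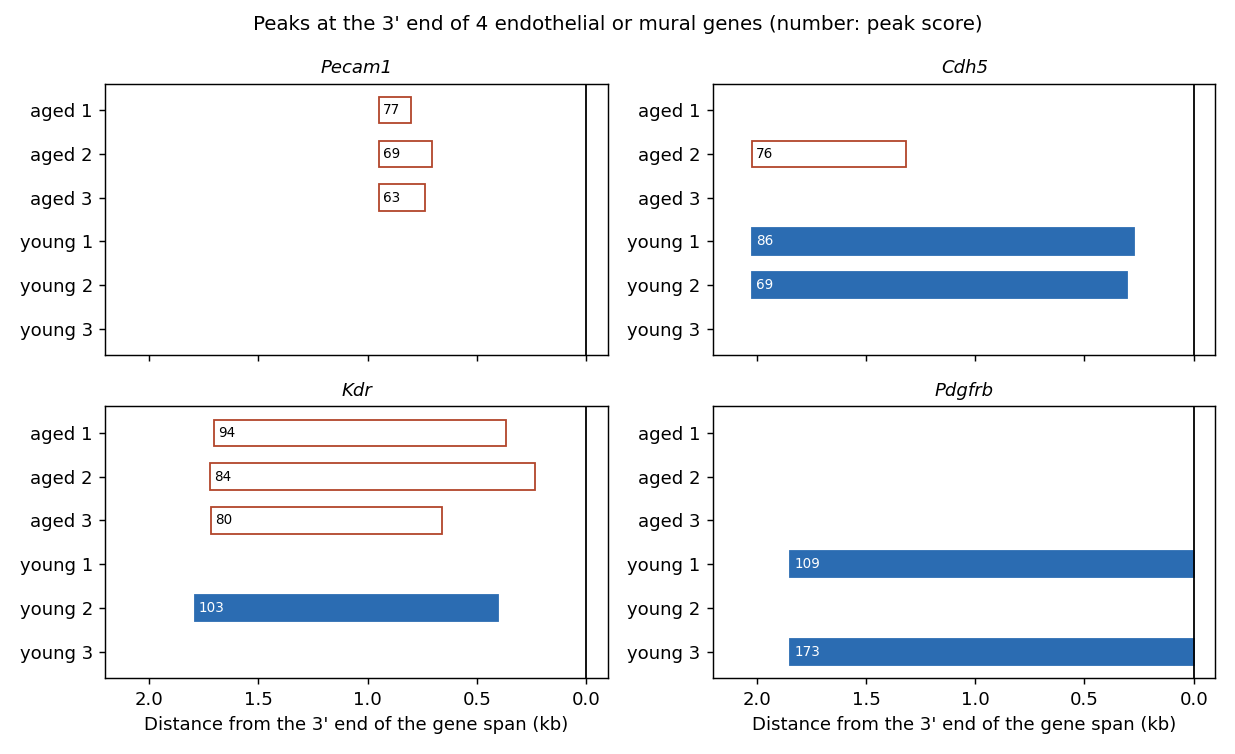
Extent of the peaks at the 3' ends of Pecam1, Cdh5, Kdr and Pdgfrb in each list, from aged to young down the page, with distance from the 3' end of the gene span in kb on the horizontal axis and the peak score in each bar; open bars are peaks left out of the lists of equal length. Every aged bar is open and every young bar is filled; Pecam1 has bars in aged lists only and Pdgfrb in young lists only.

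The transporters had few and weak peaks. Abcb1a (P-glycoprotein, which pumps drugs back into the blood) had 1, 0 and 1 peaks in aged lists and 0, 1 and 0 in young lists, at 3 different places. These lay on chromosome 5 at 8702369 to 8702572 in aged replicate 1, 8660077 to 8660222 in aged replicate 3 and 8715769 to 8715888 in young replicate 2. They scored 58.1, 60.8 and 60.8, so no position in Abcb1a was found more than once. The span of Rundc3b, on the other strand, overlaps that of Abcb1a but none of the peaks. Abcb1a has a close copy, Abcb1b, which had peaks in 2 aged and 2 young lists. The Abcb1b peaks scored 508 and 534 in aged replicates 1 and 3 and 52.4 and 53.4 in young replicates 1 and 3. Only the aged ones were kept in the lists of equal length. The sources used here do not describe the treatment of reads that match both genes.

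Slco1a4 (an organic anion transporter of the barrier) had 1, 0 and 0 peaks in aged lists and 0, 0 and 1 in young lists. Both covered the same 222 bases on chromosome 6, from 141824979 to 141825200 (minus strand), with scores of 69.0 in aged replicate 1 and 68.1 in young replicate 3. Slco1a4 belongs to a family of similar neighbouring genes, so its reads may be uncertain as to the gene.

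Vtn (vitronectin, an adhesion protein that pericytes secrete in the brain) had 1, 1 and 0 peaks in aged lists and 0, 0 and 1 in young lists. All 3 covered the same 351 bases on chromosome 11, from 78501574 to 78501924 (plus strand), 576 bases from the 3' end at the midpoint. They scored 57.8 and 78.1 in aged replicates 1 and 2 and 64.4 in young replicate 3. The exact permutation p was 1 for Abcb1a, Slco1a4 and Vtn, and the adjusted p over all genes was 1 for every vessel gene with a peak other than Pecam1. Among all 9530 genes tested, 0 had an unadjusted p under 0.05, because the design cannot reach it.

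Counted per list, vessel genes with a peak numbered 6, 5 and 4 of 10 in aged lists and 3, 4 and 4 in young lists, a mean of 5.0 ± 1.0 and 3.67 ± 0.577 (SD, n = 3 each). The ages met at 4. In the same lists 30.9%, 29% and 29.5% of all genes had a peak at 18 months, and 24.1%, 22.3% and 24.8% at 3 months. Both the vessel genes and genes at large were thus marked more often in aged lists on average. The number of peaks in the vessel genes was 8, 6 and 5 in aged lists and 4, 6 and 5 in young lists, which overlap. The mean number of peaks per list was higher at 18 months in 5 of the 8 genes, higher at 3 months in 2 (Cdh5 and Pdgfrb) and equal in Slco1a4. Over all genes with a peak it was higher at 18 months in 64.7% and at 3 months in 19.7%. The median difference was 0.333 peaks for the vessel genes and 0.333 for all genes.

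The order turned round with lists of equal length. Here 1, 1 and 1 of the 10 vessel genes had a peak in aged lists and 3, 4 and 3 in young lists, a mean of 1.0 ± 0 and 3.33 ± 0.577 (SD, n = 3 each), so that the ages no longer overlapped. The 1 gene in aged lists was Flt1 each time, while young lists also held Cdh5 and Pdgfrb in 2 lists each and Kdr, Abcb1a and Slco1a4 in 1 each. All genes together also moved that way, but by less: 19.4%, 19.5% and 19.4% had a peak in aged lists and 21.1%, 22.3% and 21% in young lists. In any of these shortened lists, 6 of the 10 vessel genes had a peak, and 33.3% of all genes. Flt1 stayed the only vessel gene in all 6, as 35% of the genes marked there did. No vessel gene was then restricted to 1 age in all 3 lists (background 1.36% aged and 2.69% young) or had more peaks in every list of 1 age (3.37% aged and 3.43% young). With all peaks, Pecam1 alone had more peaks in every aged list (background 11.8%), and no vessel gene had more in every young list (0.955%).

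Most aged peaks of the vessel genes ranked low in their lists. Equal length removed 7 of 8, 4 of 6 and 3 of 5 of them in aged lists, where 43.7%, 39.0% and 40.2% of all peaks were removed. In young lists it removed 0 of 4, 0 of 6 and 1 of 5, where 13.5%, 0% and 17.7% of all peaks were removed. The lowest score still included was 121, 105 and 108 in aged lists and 62.0, 50 and 64.6 in young lists. The aged peaks outside Flt1 reached 94.4 at most. Nearest to the limit was Vtn in young replicate 3, which ranked 14 places outside it, while Slco1a4 in the same list ranked 8197 and was inside. A fixed score also gave fewer vessel genes in aged lists: with peaks of 100 or more, 1 of the 10 had a peak in each aged list and 2 in each young list. All genes went the other way at that score, with a peak in 21.5%, 20.1% and 20.2% of them in aged lists and 15.6%, 13.2% and 15.5% in young lists. Beside Flt1, the vessel gene in young lists was Pdgfrb in replicates 1 and 3 and Kdr in replicate 2. Kdr scored 103 there, and 94.4, 84.2 and 80.0 in aged lists. The difference in direction between the vessel genes and all genes was not tested. Whether a score means the same in aged and young lists was not tested.

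**Figure D4:**
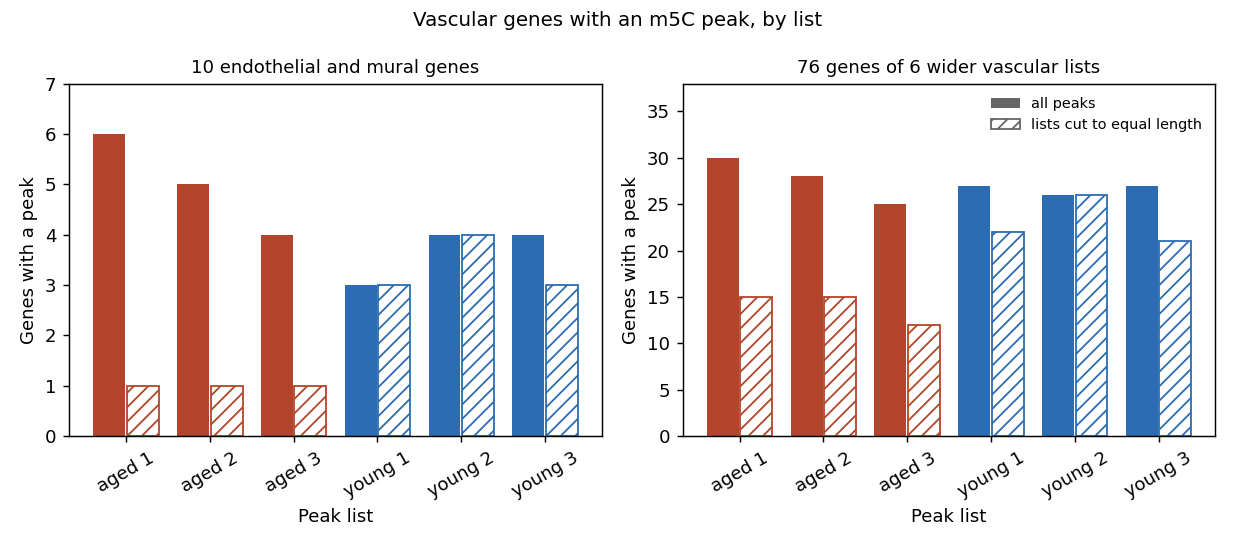
Number of genes with a peak in each list, from aged to young, among the 10 vessel genes (left) and the 76 genes of the wider vascular lists (right); solid bars count all peaks and hatched bars the lists of equal length. With all peaks the 10 genes number 6, 5 and 4 in aged and 3, 4 and 4 in young lists, and with the hatched bars 1, 1 and 1 against 3, 4 and 3.

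The vessel genes' peaks lay towards the 3' ends of the genes. Of the 34 peaks, 21 (61.8%) had their midpoint in the last 2000 bases of the span, compared with 15.9% of all peaks in genes. These were the peaks of Pecam1, Kdr, Pdgfrb and Vtn, 3 of the 4 in Cdh5 and 6 of the 13 in Flt1. At 18 months 4 of 8, 5 of 6 and 3 of 5 lay there, and at 3 months 3 of 4, 3 of 6 and 3 of 5. No vessel gene had a peak in the first 2000 bases, where 12.7% of all peaks lay. The median width was 984 bases against 220 for all peaks in genes, and 16 of the 34 (47.1%) were at least 1000 bases wide against 15.4%. Peaks of 1 gene repeat from list to list, so these shares describe a few sites, and no test was made.

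Sites recurred about as in the series. Of the 13 regions, 5 were found in 1 list only and 8 in 2 or more, where 34.7% and 65.3% of all regions were. One region, that of Pecam1, was in all aged and no young lists (5.13% of all regions), and 0 were found at 3 months alone in each of its lists (0.637%). Of the 8 recurring regions, 3 (those of Pdgfrb, Slco1a4 and Vtn) had identical ends in each list, a lower share than the 66.2% of recurring regions in the series.

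Beyond the 10 markers, 76 further genes in 6 lists of vessel biology were examined. Of these, 42 (55.3%) had a peak in at least 1 list, against 43.5% of all protein-coding genes. The counts for each of the 6 lists below stand beside that same share. With all peaks, 29% to 30.9% of all genes had a peak in aged lists and 22.3% to 24.8% in young lists. With all peaks, 30, 28 and 25 of the 76 had a peak in aged lists and 27, 26 and 27 in young lists, a mean of 27.7 ± 2.52 and 26.7 ± 0.577 (SD, n = 3 each), with overlap. With lists of equal length the numbers were 15, 15 and 12 in aged and 22, 26 and 21 in young lists, 14.0 ± 1.73 and 23.0 ± 2.65, without overlap. All genes moved that way too at equal length, at 19.4% to 19.5% in aged and 21% to 22.3% in young lists. Markers of perivascular fibroblasts had a peak in 0, 2 and 0 of 5 genes in aged and 2, 2 and 2 in young lists there, with Lum and Col3a1 at 0 in every list, and their part in the result was not tested. With all peaks, none of the 76 genes had a peak in every list of 1 age and no list of the other. That rule held for 4.24% (aged) and 0.808% (young) of all genes with a peak. A peak in all 6 lists was found for 15 of the 42 (35.7%), close to the 32% of all genes with a peak.

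Among the further junction genes, 5 of 10 had a peak. Tjp1 (ZO-1, a scaffold beneath tight junctions) had 5, 4 and 5 peaks in aged lists and 1, 1 and 2 in young lists, without overlap (exact permutation p = 0.1, adjusted p = 0.781). Tjp1 is also made outside vessels. Cgn (cingulin) was in all 6 lists, with 2, 1 and 2 aged and 1, 2 and 1 young peaks, while the tight junction protein Ocln and the adhesion molecules Jam2, Esam, F11r and Icam2 had none.

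In the signalling list, 7 of 15 genes had a peak. Nrp1 (neuropilin-1, a co-receptor for VEGF and semaphorins that neurons also express) had 3 peaks in each aged list and 2 in each young list, without overlap (exact permutation p = 0.1, adjusted p = 0.781), and its best peak had a score of 3100 in every list. Nrp2 had 3, 3 and 3 aged and 3, 2 and 2 young peaks. Flt4, Tie1, Angpt1, Acvrl1, Dll4, Ephb4, S1pr1 and Robo4 had none.

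Of the barrier transporters, 9 of 12 had a peak, and Slc3a2, Slc16a1, Slco1c1 and Lrp1 had one in all 6 lists. Slco1c1 (a thyroid hormone carrier) had 2, 3 and 3 aged and 1, 2 and 2 young peaks, and Slc16a1 (a lactate carrier) had 1 in every list. Lrp1 (a large endocytic receptor, abundant in neurons and glia) had 7, 8 and 9 aged and 4, 1 and 7 young peaks. Slc7a5 had the same number of peaks in each list as Vtn. Mfsd2a, Abcg2 and Slc22a8 had none.

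Of the endothelial transcription factors 3 of 12 had a peak in any list (Ets1, Fli1 and Klf4), where 43.5% of all genes did. Pericyte and smooth muscle genes had peaks in 10 of 16. Rgs5, a pericyte marker, had 1 peak in every list, with scores of 580, 219 and 670 in aged and 302, 136 and 819 in young lists. Abcc9, a subunit of the pericyte potassium channel, had 1, 1 and 2 aged and 1, 1 and 1 young peaks, and Acta2 (smooth muscle actin) had 1, 2 and 2 aged and 2, 3 and 1 young peaks. Des (desmin) matched Pdgfrb list for list, with peaks in young replicates 1 and 3 alone. That pattern was shared by 50 genes in the whole set, and the one common to Vtn and Slc7a5 by 30.

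Of the basement membrane genes, 8 of 11 had a peak, and Col4a1, Col4a2, Lamc1 and Fn1 had one in all 6 lists. Col4a1 and Col4a2, the chains of type IV collagen, had 2, 1 and 2 and 2, 3 and 1 aged peaks, and 2, 2 and 1 and 2, 1 and 1 young peaks. Fn1 (fibronectin) had 5, 6 and 5 aged and 4, 4 and 7 young peaks. Lamc1 (laminin gamma-1) had 2 peaks in each aged and 1 in each young list. Hspg2 (perlecan) went the other way, with 1, 0 and 1 aged and 2, 2 and 2 young peaks. Neither group overlapped (exact permutation p = 0.1 and adjusted p = 0.781 for both). More peaks in every aged list were thus seen in 3 of the 42 genes (7.14%) and more in every young list in 1 (2.38%), against 11.8% and 0.955% of all genes with a peak. At equal length the ages overlapped for Tjp1 (2, 1 and 3 aged and 1, 1 and 2 young peaks), Nrp1 (2, 1 and 2 aged and 1, 2 and 1 young) and Lamc1 (2, 0 and 0 aged and 1, 1 and 0 young), while Hspg2 had 0 aged peaks and 2 in each young list. Fn1 then had 2, 1 and 1 aged and 3, 4 and 4 young peaks, without overlap. More peaks in every young list were found for 3.43% of all genes with a peak at equal length.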

How the data were processed

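Antibody-enriched m5C RNA libraries and inputs came from the hippocampus of mice aged 18 and 3 months. Per the submitters' processing notes, reads were trimmed with cutadapt 1.9.3 and aligned with HISAT2 2.0.4 to mm10. The authors deposited 1 peak list per IP library with its input, so peaks were called per sample; peak names carry the word MACS, and its version and threshold are not given here. Column 5 is the authors' deposited score per peak, whose scale is not stated. Depths are unknown, so no counting interval is given.

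Peaks sharing at least 1 base with a protein-coding span (RefSeq, GRCm38.p6) on its strand were counted. The strand came from the RefSeq promoter table for 17492 genes and otherwise from the majority of unambiguous peaks (1831 genes); the 2 sources matched in 99.6% of 7268 genes. Coordinates count from 1. Regions are unions of overlapping same-strand peaks. Peaks per gene were compared over 9530 genes with exact permutation tests (two-sided, Benjamini-Hochberg adjusted), in Python 3.11.15 with pandas 2.3.3 and NumPy 2.4.6, tested on simulated data. All 10 members were described; from the wider lists, genes in all 6 lists, separated by age, or matching a member's counts list for list were named, and names of genes without a peak, Ets1, Fli1 and Klf4 were added after their values were seen. The members and lists were chosen with earlier results of these data known. Widths and positions within spans, and region counts, were added after the data were examined. One further gene of the wider lists is not reported here.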

Additional observations from a re-analysis of the deposited data

How the results depend on the processing

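The depth of the lists is unknown and 3 lists against 3 cannot give a p below 0.1, so no gene could pass 0.05 under any setting, and 0 did. Requiring at least 50% of a peak inside the span, or taking peaks of either strand, left each summary value as it was. The score settings turned the balance of the ages in the vessel genes. From the median score upward, 17.7%, 16.6% and 16.8% of all genes had a peak in aged lists and 13.0%, 11.8% and 13.7% in young lists. All genes thus kept the aged excess there, as with scores of 100 or more, but not at equal list length. The vessel gene difference from the median upward came from Pdgfrb in young replicate 3 alone. The aged minus young difference in vessel genes with a peak per list was 1.33 with all peaks, -2.33 with lists cut to the length of the shortest, -0.333 from each list's median score upward and -1.0 with scores of 100 or more. For peaks in these genes it was 1.33, -3.0, -0.333 and -1.0. Under the same 3 settings the number of genes in every aged and no young list, and of genes with more peaks in every aged list, was 0 instead of 1 (Pecam1), since the Pecam1 peaks fell out. Single genes changed sign at equal list length: Flt1, Kdr and Abcb1a each to -0.333 peaks, and Kdr to -0.333 also with scores of 100 or more.

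Leaving out 1 list gave 1 to 2 genes in every aged and no young list and 0 to 1 in every young and no aged list. It gave 1 to 2 with more peaks in every aged list. The higher values came without young replicate 2, through Kdr and Pdgfrb. Among all genes, leaving out 1 list gave 508 to 655 in every aged and no young list, against 404 with all 6 lists. The reverse rule gave 98 to 143 against 77, and more peaks in every aged list 1289 to 1657 against 1129. Without young replicate 2 the shares were 5.5%, 1.42% and 14.0% of 9232 genes. The list names give both ages replicate numbers 1 to 3. With the replicate block, the mean difference in peaks was 1.33 (exact sign-flip permutation p = 1). Replicates 2 and 3 had equal counts at both ages, so the sign flips could give no other p, and nothing is concluded from it. Same-numbered lists deviated together with r = 0.0227, 0.108 and 0.0391 over genes, each the highest for its aged list. Differently numbered lists had r from -0.0697 to 0.0374. The numbers were not taken as pairs, and whether they mark pairs was not tested.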

Other observations

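At equal list length, Abcc9 and Hspg2 were among the further vessel genes with a peak in every young and no aged list. That rule was met by 2.69% of the 7298 genes with a peak there. With all peaks, Abcc9 was in all 6 lists. None of the 76 further vessel genes was in every aged and no young list at equal length, where 1.36% of all genes with a peak were. Pericyte and smooth muscle genes with a peak then numbered 2, 3 and 1 of 16 in aged lists and 6, 5 and 4 in young lists, and basement membrane genes 3, 3 and 1 of 11 in aged and 6, 7 and 4 in young lists. All genes moved the same way at equal length, at 19.4% to 19.5% in aged and 21% to 22.3% in young lists. With all peaks these numbers were 6, 7 and 6 aged against 6, 5 and 6 young, and 6, 5 and 6 aged against 7, 7 and 6 young. Perivascular fibroblast markers with a peak at equal length numbered 0, 2 and 0 of 5 in aged and 2, 2 and 2 in young lists, against 1, 2 and 2 aged and 2, 2 and 3 young with all peaks. Their part in the result was not tested. Astrocyte markers at equal length numbered 4, 5 and 4 of 6 in aged and 5, 3 and 5 in young lists. Oligodendrocyte markers with a peak numbered 3, 3 and 4 of 6 in aged and 4, 2 and 3 in young lists both with all peaks and at equal length, and neuronal markers 6 of 6 in every list under both.

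Ttr, a marker of the choroid plexus, which lies beside the hippocampus, had 3 peaks in young replicate 3 with a best score of 2822 and none in any other list. It was the only 1 of the 6 choroid plexus markers with a peak in that list. Prlr, in aged replicate 1, was the only other with a peak in any list. Young replicate 3 also held the peaks of Vtn, Slco1a4 and Pdgfrb at 3 months, Pdgfrb together with young replicate 1. The same bases of Vtn had a peak in aged replicates 1 and 2, and those of Slco1a4 in aged replicate 1. Any part of choroid plexus in these peaks was not tested.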
